A study of Mus musculus with 6 samples.

Results

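Txnip, the long non-coding RNA Gm15441 transcribed from the opposite strand of its locus, and 8 genes tied to them were followed in RNA from mouse glomeruli, the filtering tufts of the kidney. The 10 genes, out of 55401 in the table, form a list: Gm15441, Txnip, Arrdc2, Arrdc3, Arrdc4, Mlxipl, Mlxip, Mlx, Txn1 and Nlrp3. They were chosen by the measured difference between the groups, Gm15441 having stood out in it, and by known ties to TXNIP, so their values in that comparison are a description. All 10 were found and all passed the filter on low counts. The study sequenced 3 Control and 3 DKD libraries, DKD being diabetic kidney disease. The labels enter both words under genotype and give no strain, age, sex or way of inducing the disease. The replicates are numbered without saying whether they are separate animals, so p-values below measure only the spread between these libraries, which may be technical.

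TXNIP is an arrestin-fold protein that binds thioredoxin and holds back its reducing activity, and it lowers glucose uptake by promoting the removal of glucose transporters from the cell surface. Its gene is a classic target of glucose: sugar phosphates activate MondoA (Mlxip) and ChREBP (Mlxipl), which pair with MLX on a carbohydrate response element in the promoter. High glucose is known to raise TXNIP in cells of the kidney, and TXNIP has been described as a partner of the inflammasome sensor NLRP3. Gm15441 has been described in mouse liver as an RNA induced by the lipid-sensing nuclear receptor PPAR-alpha.

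The layout of the locus bears on every value of the pair, since a read can belong to either strand. In the mouse gene models used here, on build GRCm38, Txnip lies on the plus strand and wholly inside the span of Gm15441 on the minus strand. The longer antisense transcript has 4 exons. Its exon 1 (103 bases) lies beyond the 3′ end of Txnip, its nearest base 4816 bases past that end. Its exon 2 (165 bases) lies entirely over coding sequence in exon 5 of Txnip. Its exon 3 (1112 bases) crosses the Txnip start, covering 162 coding bases, 279 bases of the 5′ UTR and 671 bases upstream. In all 606 exonic bases are shared, which is 36.2% of the exonic bases of Gm15441 and 19.4% of those of Txnip. The first 2 exons of Gm15441 are shown because they hold both a stretch outside Txnip, in lower case, and the 165 bases complementary to Txnip coding sequence, in capitals. Exon 1 is chr3:96566699-96566801 and exon 2 is chr3:96559678-96559842, both on the minus strand of GRCm38.
Gm15441: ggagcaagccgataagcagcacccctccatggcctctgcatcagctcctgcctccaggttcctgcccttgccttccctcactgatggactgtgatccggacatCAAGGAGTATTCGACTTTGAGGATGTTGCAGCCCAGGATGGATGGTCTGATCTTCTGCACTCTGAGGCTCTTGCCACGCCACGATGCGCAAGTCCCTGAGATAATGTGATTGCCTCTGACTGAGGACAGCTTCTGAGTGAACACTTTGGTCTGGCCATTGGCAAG

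**Figure D1:**
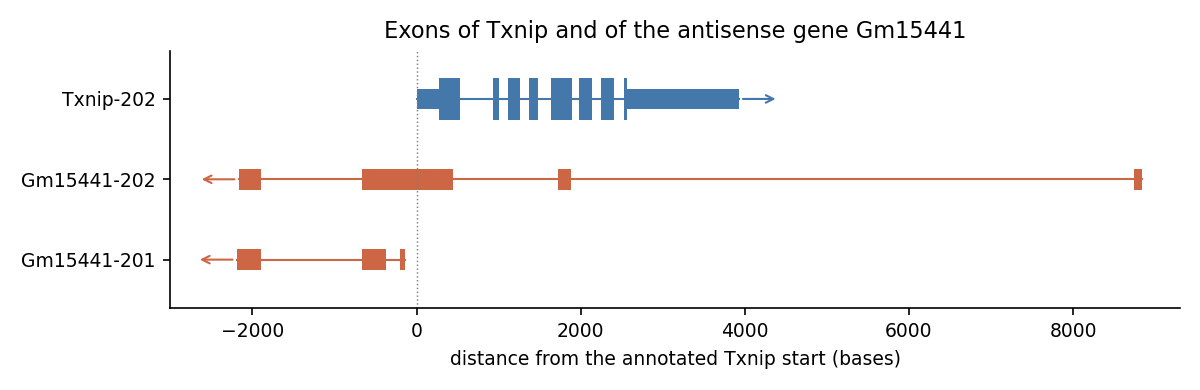
Exons (boxes; coding parts taller) of the main Txnip transcript and of both annotated Gm15441 transcripts, placed by distance in bases from the Txnip start, with arrows giving the direction of transcription. The Gm15441 exon of 1112 bases crosses the Txnip start, and the exon of 165 bases lies over Txnip coding sequence.

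Promoter sequence was available in RefSeq (build GRCm38.p6) for 9 of the 10 genes, as 300 bases of which 250 lie before the start. Those windows were searched on both strands for the E-box CACGTG, its variant CACGAG, and a pair of such boxes spaced as in the carbohydrate response element. Of the 9 genes searched Txnip was the 1 with the spaced pair, at −85 to −69 from its start, against 0.365% of the 32851 promoters in the table. Both boxes of that pair are CACGAG, a motif in 6.47% of promoters that was also found in the windows of Mlxipl (−196 to −191), Arrdc2 (−77 to −72, on the opposite strand) and Nlrp3 (37 to 42, past the start). The pair lies inside exon 3 of the longer Gm15441 transcript. CACGTG, found in 7.15% of promoters, was present before the starts of Arrdc4 (−193 to −188), Mlxipl (−98 to −93) and Mlx (−40 to −35). These 4 stretches are shown because they carry the letters by which MLX partners are known to recognise DNA, with those letters in capitals. A match describes the letters only.
Txnip, chr3:96557842-96557918, plus strand: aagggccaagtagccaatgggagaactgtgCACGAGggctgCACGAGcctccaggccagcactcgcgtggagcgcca
Arrdc4, chr7:68749401-68749456, minus strand: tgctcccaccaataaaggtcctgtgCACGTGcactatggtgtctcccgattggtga
Mlxipl, chr5:135089767-135089822, plus strand: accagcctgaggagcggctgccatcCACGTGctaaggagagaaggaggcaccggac
Mlx, chr11:101087225-101087280, plus strand: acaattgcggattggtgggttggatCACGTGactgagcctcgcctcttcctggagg

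The libraries held between 71154026 and 83576494 counts. Control replicate 3 had correlations across genes of 0.956 and 0.954 to the other Control libraries, whose own correlation was 0.980. Between DKD libraries the correlations were 0.970, 0.963 and 0.964. Proximal tubule markers were abundant beside the glomerular ones, their 8 members summing to between 15218 and 34167 CPM in Control and between 7837 and 16531 CPM in DKD. CPM here is the read count divided by library size, the size being adjusted by TMM factors. The 8 podocyte markers, all detected, summed to between 451 and 646 CPM in Control and between 318 and 442 CPM in DKD, with the groups not overlapping. The 8 endothelial markers ran from 360 to 516 CPM in Control and from 220 to 366 CPM in DKD. Mitochondrially encoded genes took 10.6% to 12.2% of counts in Control and 15.3% to 18.7% in DKD. In such bulk RNA fewer cells of a type and less RNA per cell cannot be told apart, and the part of cell content in the values below was not tested.

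Gm15441 (ENSMUSG00000074398) was about 13 times higher in DKD than in Control. It was measured at 2.49, 2.27 and 2.81 CPM in Control replicates 1 to 3, from counts of 208, 184 and 213. In DKD replicates 1 to 3 it was measured at 32.3, 36.9 and 30.1 CPM, from counts of 2161, 2663 and 2145. The groups lay far apart, with little spread inside either: the coefficient of variation was 10.8% in Control and 10.5% in DKD. The group means were 2.53 ± 0.273 and 33.1 ± 3.48 CPM (SD, n = 3), a ratio of 13.1, and the log2 fold change, DKD over Control throughout, was 3.71 ± 0.15 (SE). Leaving out any single library kept it between 3.61 and 3.79. It held the smallest p of the 19717 genes tested, and 9 of the genes past the threshold had a larger upward fold.

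In the fit across all genes, an adjusted p under 0.05 (edgeR's quasi-likelihood test, Benjamini-Hochberg adjustment) was the threshold. Gm15441 was the 1 of the 10 genes past it, where 1.16% of all genes were. All 3 DKD libraries lay above all 3 Control libraries for 5 of the 10 (Gm15441, Txnip, Arrdc2, Arrdc3 and Txn1), and none showed the opposite. Of all genes 30.7% had groups that did not overlap, 15.5% with DKD above and 15.2% with DKD below. Because the genes were listed with this comparison known, nothing is read from these counts. The median log2 fold change of the 10 was 0.47, against 0.003 over all genes tested. DESeq2 called 4 of the 10, adding Arrdc2, Arrdc3 and Txn1, but it called 13.7% of the 18167 genes to which it gave an adjusted p.

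**Figure D2:**
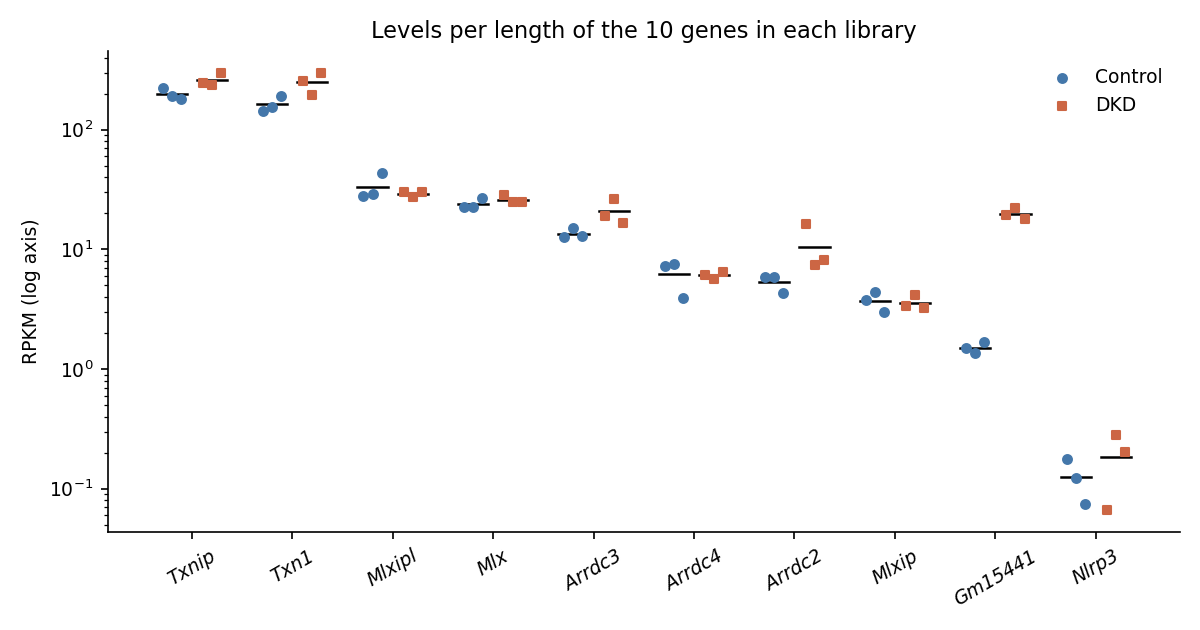
Levels per length (RPKM, log axis) of the 10 genes in each of the 3 Control (circles) and 3 DKD (squares) libraries, with a line at each group mean, ordered by the Control mean. Gm15441 is ninth of 10 in Control and sixth in DKD, and its groups are the farthest apart of the 10.

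Txnip (ENSMUSG00000038393), the sense gene, was far more abundant and differed far less. Its level was 696, 598 and 568 CPM in Control replicates 1 to 3 and 760, 737 and 920 CPM in DKD replicates 1 to 3. The groups did not overlap, though the lowest DKD library was close to the highest Control library. The means were 620 ± 66.7 and 806 ± 99.6 CPM (SD, n = 3), with a log2 fold change of 0.38 ± 0.17 (SE) that did not pass the threshold. DKD replicate 3 was the highest, and without it the log2 fold change was 0.27. With library totals as the only scaling it was 0.23. In Control, Txnip exceeded 99.3% of the genes tested in CPM.

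Set against Txnip within each library, the antisense RNA made up a share about 10 times larger in DKD. Gm15441 counts came to 0.358%, 0.380% and 0.495% of the Txnip counts in Control replicates 1 to 3. They came to 4.25%, 5.00% and 3.27% in DKD replicates 1 to 3. No DKD library approached a Control library in this ratio, which does not depend on how libraries are scaled. The mean log2 ratio was −7.94 ± 0.25 in Control and −4.60 ± 0.31 in DKD (SD, n = 3), a difference of 3.34 that stayed between 3.195 and 3.50 with any 1 library left out. Per exonic base, Gm15441 stood at 0.766% ± 0.138 of Txnip in Control and 7.78% ± 1.62 in DKD.

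The protocol in the labels marks the strand with dUTP, but whether counting used it is not given in the sources used here. Without strand, reads over the 606 shared bases cannot be told apart. The mean difference between groups was 30.6 CPM for Gm15441 and 185 CPM for Txnip, so on that scale the difference was smaller for Gm15441. Of the exonic bases of Gm15441, 1070 lie outside Txnip exons, and how many of its reads fell there was not tested.

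**Figure D3:**
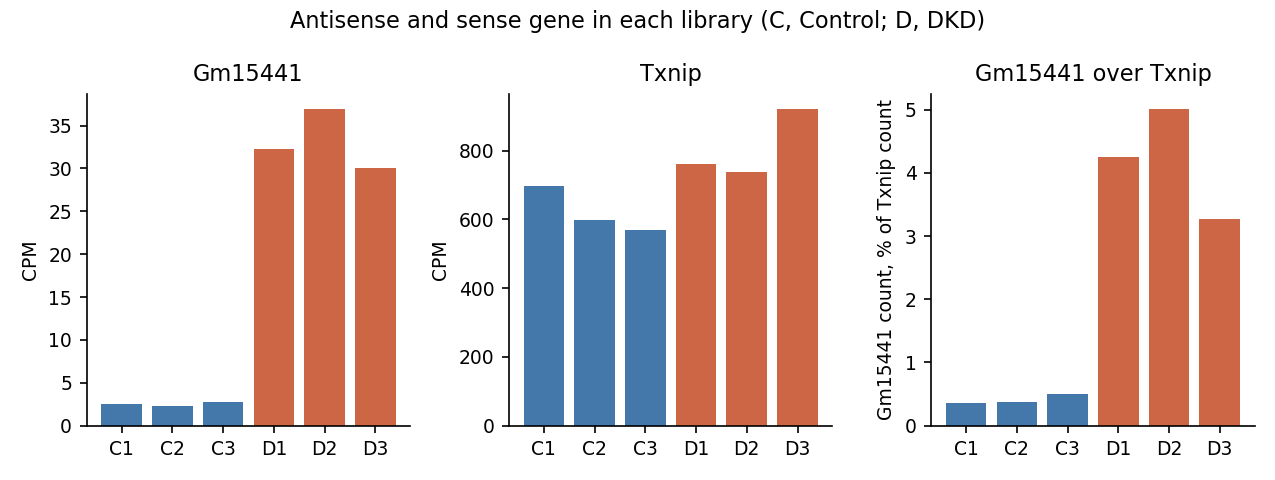
Gm15441 (left) and Txnip (middle) in CPM, and the Gm15441 count as a percentage of the Txnip count (right), in each library (C, Control; D, DKD; bars start at 0). Gm15441 lies between 2.27 and 2.81 CPM in Control and between 30.1 and 36.9 CPM in DKD, whereas Txnip spans 568 to 920 CPM over all 6 libraries.

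The genes beside the locus were examined in the same fit. Of 35 other annotated genes starting within 200 kb of the Txnip start, 17 had enough counts to test and edgeR called 0 of them, where 1.16% of all genes were called, so a count of 0 does not set them apart. Their log2 fold changes ran from −0.66 to 1.31, and the smallest adjusted p was 0.309 by edgeR. None of the 17 passed in any of the 17 alternative fits, DESeq2 included.

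The other alpha-arrestins of the list, relatives of TXNIP that share its fold, differed in different ways. Arrdc3, a regulator of adrenergic receptor traffic and of glucose uptake, was measured at 78.8, 93.8 and 80.6 CPM in Control replicates 1 to 3. In DKD it was measured at 119, 166 and 104 CPM, every library above Control, with the highest value in replicate 2. Its log2 fold change was 0.62 ± 0.19, and 0.39 without DKD replicate 2. Arrdc2, which encodes another member of the family, had 19.1, 19.0 and 13.8 CPM in the Control libraries and 52.1, 23.9 and 26.3 CPM in those of DKD. Here DKD replicate 1 stood at about 2 times the other DKD libraries. The log2 fold change of 0.98 ± 0.31 was 0.54 without that library. Neither gene passed the threshold.

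Arrdc4 is, like Txnip, a known target of MondoA and ChREBP, and its protein also lowers glucose uptake. Its Control libraries had 29.2, 30.3 and 15.7 CPM and its DKD libraries 24.9, 22.6 and 26.1 CPM. The DKD libraries lay inside the Control range, in which replicate 3 was the low one. Its log2 fold change was −0.03 ± 0.24, was positive in 5 alternative analyses and was −0.28 without Control replicate 3. No difference was detectable for Arrdc4 at this precision.

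Other arrestin-fold genes, listed beside the members, were tested too. Arrdc5 had no counts in any library, and edgeR called 0 of the other 3. All 3 had an unadjusted p under 0.05, as did 22.6% of all genes tested. Arrb2, a beta-arrestin that ends receptor signalling, had a log2 fold change of 0.54 ± 0.18 and Arrb1, its closest relative, −0.35 ± 0.12 (edgeR adjusted p 0.151 and 0.152). In both cases the groups did not overlap, and with a length trend removed Arrb1 was at −0.18. DESeq2 called none of them.

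The glucose-sensing transcription factors overlapped between the groups. Mlxipl, which encodes ChREBP, had 155, 160 and 240 CPM in the Control libraries and 165, 150 and 166 CPM in those of DKD. Control replicate 3 was the high one, and the other Control libraries lay within the DKD range. The log2 fold change was −0.21 ± 0.19 and was 0.02 without that library. Control replicate 3 also had the highest summed proximal tubule markers, 34167 CPM against at most 17266 CPM in any other library; their part in the Mlxipl values was not tested.

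Mlxip, which encodes MondoA, ran from 24.8 to 36.9 CPM in Control and from 27.2 to 34.6 CPM in DKD, with a log2 fold change of −0.05 ± 0.17. Mlx, their common partner on DNA, ran from 45.3 to 53.5 CPM in Control and from 49.4 to 56.6 CPM in DKD, with a log2 fold change of 0.11 ± 0.12. Both overlapped between groups. Their directions were not stable: the fold of Mlxip turned positive with a length trend removed or with Control replicate 2 or DKD replicate 3 left out, and that of Mlx turned negative with library totals as the scaling or with a length trend removed. Psmc3ip lies over 19.3% of the exonic bases of Mlx on the opposite strand and had 2.29 ± 0.220 CPM in Control against 2.58 ± 0.334 CPM in DKD.

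Txn1, the cytosolic thioredoxin that TXNIP binds, was higher in every DKD library than in any Control library, by a narrow margin. Its Control libraries had 151, 163 and 203 CPM and its DKD libraries 269, 203.3 and 315 CPM. DKD replicate 2, the lowest of its group, lay within 1 CPM of Control replicate 3 (202.6 CPM). The log2 fold change was 0.60 ± 0.20 and was 0.38 with a length trend removed. It did not pass the threshold.

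Nlrp3, the inflammasome sensor, was barely expressed. Its counts ran from 18 to 82 per library, which gave 0.718, 0.494 and 0.304 CPM in Control and 0.269, 1.14 and 0.827 CPM in DKD. The groups overlapped fully, with the lowest value of all in DKD replicate 1, and the log2 fold change was 0.56 ± 0.61, with 0.11 when DKD replicate 2 was left out. No difference was detectable beyond the spread between libraries. The 8 macrophage markers, from cells in which NLRP3 is mainly found, summed to 203, 228 and 104 CPM in Control and 136, 299 and 252 CPM in DKD, with the lowest values in the same libraries as those of Nlrp3. Their part in the Nlrp3 values was not tested.

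Per length, Txnip and Txn1 were the most abundant of the 10 in both groups. In Control the mean RPKM (CPM per kilobase of exon) was 199 ± 21.4 for Txnip and 164 ± 25.5 for Txn1, whose ranges overlapped. Mlxipl followed at 33.4, then Mlx at 24.1 and Arrdc3 at 13.5, none overlapping its neighbour below. Arrdc4 (6.21), Arrdc2 (5.36) and Mlxip (3.73) came next, and each overlapped its neighbour among them. Gm15441 was ninth at 1.51 ± 0.163 and Nlrp3 last at 0.125 ± 0.0510. In DKD, Gm15441 stood sixth at 19.7 ± 2.08 RPKM, overlapping Arrdc3 (20.7 ± 5.20) and above Arrdc2 (10.6 ± 4.84). By the length of the longest transcript instead of all exonic bases, Arrdc3 came to 31.4 RPKM in DKD and Mlxipl to 44.3.

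**Figure D4:**
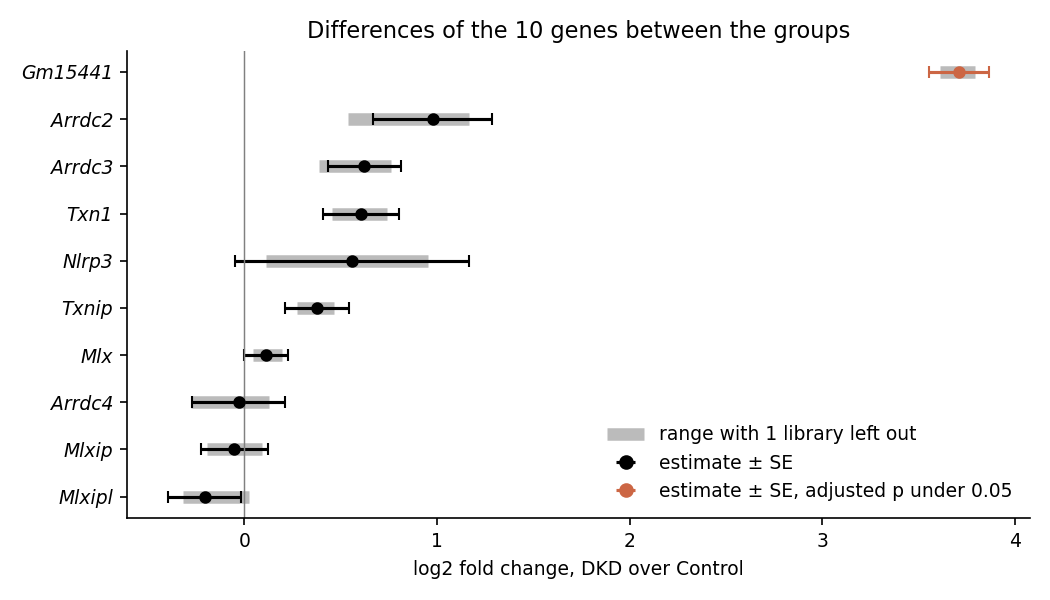
Log2 fold change, DKD over Control, of the 10 genes (points, with SE bars; n = 3 per group), with grey bands for the range when any 1 library is left out. Gm15441 stands at 3.71 and all others lie between −0.21 and 0.98; the bands of Arrdc4, Mlxip and Mlxipl cross 0, and Mlx turns negative with library totals or a length trend removed.

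Around these genes 7 pathway lists were drawn up, holding 102 distinct genes of which 100 could be tested. Over all of them edgeR called 8, of which 7 were higher and 1 lower in DKD. Across all genes 0.725% were called higher and 0.431% lower, 22.6% had an unadjusted p under 0.05 and 50.2% had a positive fold. These lists were also drawn up with earlier results of these data known, among them those of several PPAR-alpha targets, and are no independent evidence of a direction.

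Of 21 further targets of ChREBP and MondoA, edgeR called 0 higher and 1 lower. By sign 8 folds were positive and 13 negative, and the median log2 fold change was −0.31. The gene called lower was Mttp, which loads lipid onto apolipoprotein B. Its Control libraries had 33.0, 32.1 and 31.8 CPM and its DKD libraries 14.4, 9.93 and 11.4 CPM. The groups lay well apart (−1.44 ± 0.15, edgeR adjusted p 0.0192), but the call was lost without Control replicate 1, Control replicate 2, DKD replicate 1 or DKD replicate 3 (edgeR adjusted p up to 0.0937). All 8 proximal tubule markers also had negative folds, with 2 of them called lower by edgeR and a median of −0.88, and their part in the values of this list was not tested. Other members are named after their values were seen. Acly (−0.66 ± 0.13, edgeR adjusted p 0.0573), G6pc (−1.70 ± 0.43) and Acaca (−0.96 ± 0.26) also lay wholly below Control. The 1 gene wholly above was Pklr. DESeq2 called Mttp, Pklr, Fasn, Scd1, Acly, G6pc and Acaca. Pklr, the liver-type pyruvate kinase and a textbook target of ChREBP, had a log2 fold change of 1.87 ± 0.49 (edgeR adjusted p 0.0928), with 261 CPM in DKD replicate 3 and 83.1 and 71.2 CPM in the others. Without that library its log2 fold change was 1.03. The lipogenic genes Fasn (−1.39 ± 0.33) and Scd1 (−2.33 ± 0.51) had edgeR adjusted p of 0.0769 and 0.0677. Both were called without Control replicate 3 (edgeR adjusted p 0.0325 and 0.0193), and Fasn was at −0.92 without Control replicate 1. Hcn3 lies over 21.97% of the exonic bases of Pklr on the opposite strand.

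The list of PPAR-alpha targets held most of the calls. Of 21 genes 7 rose and 0 fell by edgeR, 18 had a positive fold, and the median log2 fold change was 1.17. Vnn1, a pantetheinase, had 117, 106 and 112 CPM in the Control libraries and 309, 278 and 351 CPM in those of DKD (1.49 ± 0.14, edgeR adjusted p 0.0169). Acot2, a mitochondrial acyl-CoA thioesterase, went from 22.9 ± 4.09 to 73.5 ± 13.3 CPM (1.68 ± 0.18). Its close paralog Acot1 may share reads with it. Angptl4, an inhibitor of lipoprotein lipase, had 1.28 ± 0.15.

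Cpt1b, which carries long-chain fatty acids toward mitochondrial oxidation, had a log2 fold change of 1.19 ± 0.15, although another gene model on the same strand covers 81.4% of its exonic bases. Other calls, named after their values were seen, included Slc25a20, the mitochondrial carnitine carrier (0.94 ± 0.12), and Pdk4, a kinase that inhibits pyruvate dehydrogenase (2.50 ± 0.33). The receptor gene itself, Ppara, was also named after its values were seen. It had 24.3, 27.7 and 36.9 CPM in the Control libraries and 10.4, 15.6 and 13.4 CPM in those of DKD. Every DKD library lay below every Control library, and the log2 fold change of Ppara was −1.18 ± 0.21 (edgeR adjusted p 0.0527). DESeq2 called it, and edgeR did so with library totals and with the filter of 1 CPM in 3 libraries. All 7 rises lost their call when Control replicate 1, Control replicate 2, DKD replicate 1 or DKD replicate 3 was left out. Gm15441 passed with each library left out, and ordered by p it came before each of these genes. Gm15441 was listed for standing out in this same comparison, so nothing is read from that difference.

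**Figure D5:**
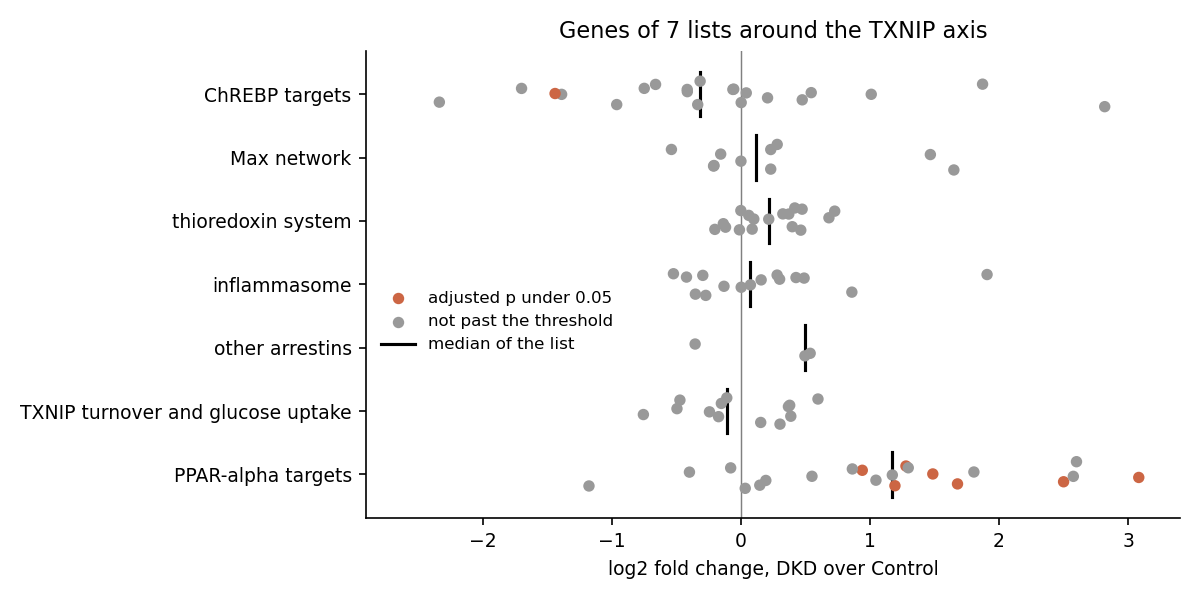
Log2 fold change, DKD over Control, of the tested genes in 7 lists around the TXNIP axis (1 point per gene; vertical offsets are for display), with a line at each list's median. Orange points passed an edgeR adjusted p of 0.05: 7 higher among the PPAR-alpha targets and Mttp, lower, among the ChREBP targets.

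In the remaining lists edgeR called 0 genes. The 17 other genes of the thioredoxin system had a median log2 fold change of 0.22, with 13 positive and 5 at an unadjusted p under 0.05, against 50.2% and 22.6% of all genes. Srxn1, which repairs over-oxidised peroxiredoxins, had 0.73 ± 0.21 and the peroxiredoxin Prdx2 0.37 ± 0.14 (edgeR adjusted p 0.111 and 0.171). Srxn1 was above Control in every DKD library and reached 171 CPM in DKD replicate 3, against 106 and 101 CPM in the others; without that library the log2 fold change was 0.44. DESeq2 called Srxn1 and none of the other 16.

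The 15 partners and products of the inflammasome had a median of 0.07, and 1 had an unadjusted p under 0.05 by edgeR, against 22.6% of all genes. That was Nek7, which binds NLRP3 (−0.29 ± 0.12, edgeR adjusted p 0.192). Il1rn, a natural antagonist of interleukin-1, had 1.91 ± 0.94, with 2.13 CPM in DKD replicate 3 and at most 0.499 CPM in any other library, and 0.70 without that replicate. DESeq2 called 0 of the 15.

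Among 13 tested genes of TXNIP turnover and glucose uptake the median was −0.11 and 5 had an unadjusted p under 0.05, against 22.6% of all genes. The ubiquitin ligases Wwp2 and Nedd4l, of the family that binds arrestin-domain proteins, had −0.49 ± 0.11 and 0.39 ± 0.12 (edgeR adjusted p 0.0738 and 0.120). Nedd4l was at 0.63 with a length trend removed and at 0.26 with library totals. DESeq2 called both of these and Slc2a2, which is named after its values were seen. The 10 genes of the MAX network, to which MLX belongs, had a median of 0.12, with 3 at an unadjusted p under 0.05, a share near the 22.6% of all genes. Myc had 1.47 ± 0.30 and Mxd3 1.65 ± 0.50 (edgeR adjusted p 0.0624 and 0.122), and DESeq2 called both.

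The genes most like Gm15441 in level over the 6 libraries were sought by Pearson's r of log CPM among 13362 named genes with a mean of at least 1 CPM. The measure is largely set by the difference between the groups and is given with no test. The closest was Apoa4, an apolipoprotein, at r = 0.998, which rose from 6.04 ± 0.363 to 18.2 ± 1.13 CPM (1.59 ± 0.14, edgeR adjusted p 0.0156). Next came Rad54l, Mroh1, Orai1 and Maea, of which Rad54l had r = 0.995. Of these 5, edgeR called Apoa4 and Orai1, a calcium channel subunit. Orai1 lost its call with any 1 library left out (edgeR adjusted p up to 0.152), with library totals, with no filter and with a length trend removed. Apoa4 lost its call without Control replicate 1, Control replicate 2, DKD replicate 1 or DKD replicate 3 (edgeR adjusted p up to 0.0937). With the group means removed, the closest were Osbpl2, N6amt1, Dpy19l4, Sema4d and Dgcr2 (r from 0.999 down to 0.994). Other genes came nearly as close over so few libraries, and this measure too is given with no test. Among those 5 edgeR called Dpy19l4, which fell (−0.97 ± 0.15, edgeR adjusted p 0.0400). That call was lost when any of the same 4 libraries was left out (edgeR adjusted p up to 0.153), with no filter and with a length trend removed.

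For Txnip the closest in level were Dmap1, Emd, Wsb1, Arhgef2 and Rfx5, with r from 0.996 down to 0.992, and edgeR called none of them. Wsb1 had the largest fold of these, 0.95 ± 0.26 (edgeR adjusted p 0.102). With the group means removed they were Ada, Podxl, Tmem51, Emd and Rian (r from 0.996 down to 0.993), again with 0 called by edgeR. Here too other genes came nearly as close, and no test is given. Podxl, a sialoprotein of the podocyte surface, had a mean of 236 ± 34.9 CPM over Control and 157 ± 23.7 CPM over DKD. No other member of the list was among these 5 for either gene: Gm15441 and Txnip themselves had r = 0.79, which put Txnip at rank 1643 in likeness to Gm15441.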

How the data were processed

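Polyadenylated RNA of isolated mouse glomeruli was sequenced as dUTP-stranded paired reads, per the labels' protocols, in 3 Control and 3 DKD libraries. The authors deposited a table of counts per Ensembl gene. Per the submitters' processing notes fastp, HISAT2, StringTie and edgeR were used with build GRCm39. The sources used here give no versions, annotation release or strand setting of counting. Counts of 4 (6267 times) outnumbered counts of 3 (3129) and 5 (1993) in the table. The origin of this was not tested, and a count may not equal a number of reads.

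Symbols, exon lengths and overlaps came from GENCODE gene models on GRCm38, a different build from that of the counts. Of the identifiers 55141 matched and 260 did not, the latter holding 0.00805% of counts. Promoters came from RefSeq (GRCm38.p6).

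Genes were kept by filterByExpr (minimum count 10; 19717 of 55401), scaled by TMM and compared by edgeR 4.0.16 in R 4.3.3 (quasi-likelihood F test, group alone in the model). SE is the log2 fold change over the root of F. Alternatives were RLE, upper quartile and library-total scaling, DESeq2 1.42.0, limma-voom (limma 3.58.1), a filter of 1 CPM in 3 libraries, unfiltered genes, a block for the replicate number, robust dispersion, mitochondrially encoded genes left out, a trend on exon length removed (5 degrees of freedom), an adjusted p under 0.1, another transcript length, a prior count of 0.5 in place of 2, and each library left out. The procedure was also tested on simulated data.

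The members and lists were chosen with earlier results of these data known. Named were the 10 members, up to 4 genes past the threshold per list or else the 2 with the smallest p, and the 5 genes most like Gm15441 and like Txnip in level and in deviation from group means, leaving out predicted and clone-named models. The same rule takes the tested genes near Txnip, which are given as a count and a range. Genes named outside it for their values are marked in the text. All 6 libraries enter the reported values. Of the PPAR-alpha targets called, 1 is counted but not reported here by name.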

Additional observations from a re-analysis of the deposited data

How the results depend on the processing

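Gm15441 passed the threshold in every alternative except the fit with the replicate number as a block, where its edgeR adjusted p was 0.0510. That replicate block called 0 genes in all, 0 members and 0 of the listed genes, and its log2 fold change of Arrdc4 was 0.0232. The labels give no pairing. Same-numbered libraries deviated from their group means with correlations of −0.183, 0.0663 and −0.224. With so few libraries these values cannot decide whether the numbers pair the samples. Genes called over all genes, 228 in the reported analysis, were 516 with at least 1 CPM in 3 libraries, 56 with no filter, 2483 with DESeq2 and 1478 at an adjusted p under 0.1, and ran from 1 to 386 with 1 library left out. Leaving out Control replicate 1 gave the 1 call and Control replicate 3 the 386. The number was 13 when Control replicate 2 was dropped, 4 for DKD replicate 1 and 10 for DKD replicate 3. Members called were 4 with DESeq2 and 1 with each library left out. Listed pathway genes called, 8 as reported, were 5 with no filter, 27 with DESeq2, 21 at an adjusted p under 0.1, and from 0 to 14 with 1 library left out. Folds that changed sign belonged to uncalled genes. With limma-voom Arrdc4 was at 0.0191. With the length trend removed Mlxip was at 0.0771, Mlx at −0.0346, Ada at −0.0377 and Rian at 0.20. With library totals, which moved the median of all genes to −0.13, Mlx was at −0.0136 and Ada at −0.0704. With 1 library left out Arrdc4 ran from −0.28 to 0.13, Mlxipl from −0.32 to 0.0246, Mlxip from −0.19 to 0.0904, Ada from −0.22 to 0.34 and Rian from −0.47 to 0.37. Nlrp3 had the fewest counts of the 10 genes, 18 to 82 per library, and coefficients of variation of 41.0% and 59.1%; the part of depth in that spread was not tested.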
